A study of Mus musculus with 100 samples.

Results

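The transcripts described here are those of 41 cell cycle and DNA replication genes, chosen by name as widely used proliferation markers and read in 37 RNA sequencing libraries of mouse cells and embryos. They are 41 of the 23109 gene-level entries in the tables, and all 41 were found. The S-phase genes number 18 and cover the MCM helicase (Mcm2 to Mcm7), the factors that load and fire it (Cdc6, Cdt1, Cdc45, Gins2), the sliding clamp and nucleotide supply (Pcna, Rrm1, Rrm2, Tyms) and regulators of S-phase entry and progression (Ccne1, Ccne2, E2f1, Chek1). The mitotic genes number 23 and cover cyclins, their kinase and factors of the anaphase-promoting complex (Ccna2, Ccnb1, Ccnb2, Cdk1, Cdc20, Ube2c), kinases and checkpoint proteins (Aurka, Aurkb, Plk1, Bub1, Bub1b, Ttk, Birc5), spindle proteins and motors (Kif11, Kif20a, Kif23, Tpx2, Nusap1) and proteins of the centromere, kinetochore and chromosome surface (Cenpa, Cenpe, Cenpf, Top2a, Mki67). In cycling cells, E2F factors raise the S-phase genes near the end of G1, when origins licensed by Cdc6 and Cdt1 are about to fire, and the mitotic genes rise later, in G2, through elements bound by the MuvB complexes. When cells leave the cycle, as neurons do, the retinoblastoma family and the DREAM complex keep both sets repressed. Pluripotent mouse cells divide rapidly with a short G1 and hold abundant transcripts of both sets.

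The study, by its title, asks how the methyltransferase activities of MLL3 and MLL4 bear on early development and on stem cell differentiation. MLL3 and MLL4 are histone H3 lysine 4 methyltransferases that act at enhancers and are encoded by Kmt2c and Kmt2d. All cultured cells carried Mll3-/-, and were Mll4flox/flox in the reference (flox) or Mll4KI/KI in the compared cells (KI). The KI replicates are 2 clones, 27 and 48, with 1 library of each at every stage. The labels do not spell out KI. Embryonic stem (ES) cells were kept in 2i and LIF. Embryoid bodies (EBs) formed in hanging drops without LIF and were taken at days 4 and 10, with 1 flox and 2 KI libraries at each of the 3 stages including ES cells. Neural progenitors (day 8, after retinoic acid) and neurons plated from them (day 16) had 2 flox and 2 KI libraries each. So did trophectoderm (TE) cultures at day 6, driven by a doxycycline-inducible lentiviral CDX2 transgene, and extraembryonic endoderm (ExEn) cultures taken on day 5, after retinoic acid with activin A. Embryos of E8.5 and of E9.5 had 3 control libraries (Mll3flox/KI;Mll4flox/+;Sox2-Cre) and 3 KI libraries (Mll3flox/KI;Mll4flox/KI;Sox2-Cre) at each age. Sox2-Cre recombines floxed alleles in the epiblast, from which the embryo proper forms, and both groups carried it with 1 Mll3 KI allele. Kmt2c stood at 28.6 to 107 CPM (read counts scaled to the size of each library) and Kmt2d at 141 to 343 CPM over all 37 libraries, and levels over whole transcripts do not test the genotype labels.

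The promoters show what the members share in sequence. RefSeq promoters (build GRCm38.p6, 250 bases before to 50 bases after the annotated start) were at hand for 34 of the 41 members, 15 S-phase and 19 mitotic. They were searched on both strands for an E2F core (TTNNCGC with C or G at each N), for the cell cycle homology region element (CHR, TTTGAA) and for the CCAAT box. Matches that share bases, of one motif on both strands or of different motifs, were counted separately. The E2F core was present in 9 of 15 S-phase promoters (60.0%) and 3 of 19 mitotic promoters (15.8%), against 9.7% of all 27025 promoters in the table. The CHR letters were present in 14 of 19 mitotic promoters (73.7%) and 2 of 15 S-phase promoters (13.3%), against 18.1% of all promoters. CCAAT was found in 17 of 19 mitotic (89.5%) and 9 of 15 S-phase promoters (60.0%), against 37.9%, and CHR with CCAAT in 14 of 19 mitotic promoters against 7.1%. A match is a description of the letters in this window and not a bound site.

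The promoters of 5 genes on which the comparisons turn are printed to show these matches, read 5′ to 3′ on the gene's strand, with matches to the E2F core, CHR and CCAAT (or their reverse complements) in capitals. A position is that of the first base of the match on the gene's strand, and -1 is the base before the start. Mcm6, a subunit of the replicative helicase (chr1:128359656-128359955, minus strand), holds 5 E2F matches at 3 separate places, since those at -109 and -106 overlap on opposite strands, as do those at -46 and -43, and the fifth is at +25. It also holds CCAAT at -57 and -14. Cdt1, which loads the helicase at origins (chr8:122567765-122568064, plus strand), holds E2F matches at +19 and +34. Rrm2, the S-phase subunit of ribonucleotide reductase (chr12:24708004-24708303, plus strand), holds an E2F match at -235 and CCAAT at -50. Cdc20, the activator of the anaphase-promoting complex (chr4:118437294-118437593, minus strand), holds CHR at -18 and CCAAT at -53 and -8. Ttk, a spindle checkpoint kinase (chr9:83834439-83834738, plus strand), holds CHR at +8 and CCAAT at -65 and -28.
Mcm6: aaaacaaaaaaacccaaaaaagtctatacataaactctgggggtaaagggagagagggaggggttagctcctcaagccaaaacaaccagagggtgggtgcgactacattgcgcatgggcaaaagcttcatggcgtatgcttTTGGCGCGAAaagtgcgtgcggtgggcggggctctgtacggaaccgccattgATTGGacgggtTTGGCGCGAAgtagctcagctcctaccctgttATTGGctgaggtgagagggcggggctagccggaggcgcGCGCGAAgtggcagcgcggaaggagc
Cdt1: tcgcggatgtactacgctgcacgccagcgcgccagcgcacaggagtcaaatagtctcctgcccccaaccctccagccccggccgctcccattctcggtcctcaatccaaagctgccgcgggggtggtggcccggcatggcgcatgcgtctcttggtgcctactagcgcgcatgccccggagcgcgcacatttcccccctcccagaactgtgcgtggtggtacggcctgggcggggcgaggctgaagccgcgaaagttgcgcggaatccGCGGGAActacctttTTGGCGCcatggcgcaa
Rrm2: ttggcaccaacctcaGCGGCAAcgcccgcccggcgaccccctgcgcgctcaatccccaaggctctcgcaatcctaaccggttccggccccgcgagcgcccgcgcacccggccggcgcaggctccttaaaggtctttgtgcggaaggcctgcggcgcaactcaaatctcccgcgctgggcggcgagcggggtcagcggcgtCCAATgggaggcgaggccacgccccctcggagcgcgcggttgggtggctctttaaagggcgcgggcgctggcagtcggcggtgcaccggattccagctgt
Cdc20: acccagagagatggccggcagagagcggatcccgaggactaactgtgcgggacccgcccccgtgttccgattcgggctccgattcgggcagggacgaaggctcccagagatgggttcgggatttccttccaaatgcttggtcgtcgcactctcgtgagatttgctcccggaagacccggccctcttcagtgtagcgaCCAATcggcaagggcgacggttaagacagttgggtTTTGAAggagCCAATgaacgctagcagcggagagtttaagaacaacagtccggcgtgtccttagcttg
Ttk: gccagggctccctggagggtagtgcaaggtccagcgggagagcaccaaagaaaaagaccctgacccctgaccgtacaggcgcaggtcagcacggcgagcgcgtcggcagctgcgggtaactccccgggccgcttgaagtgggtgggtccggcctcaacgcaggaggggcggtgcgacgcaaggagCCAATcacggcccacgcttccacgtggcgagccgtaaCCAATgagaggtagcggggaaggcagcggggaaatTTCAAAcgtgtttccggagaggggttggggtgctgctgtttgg

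Gene-level totals ran from 18908148 to 59880727 reads per library, and the lowest count of any member in any library was 117 reads. Values per library are CPM with scaling factors computed over all 37 libraries, given in the order flox 1 and 2, KI clones 27 and 48, or embryos 1 to 3, and a log2 fold change of 1 is a doubling. The value after ± beside a log2 fold change is its standard error (SE), and rose, fell, higher and lower are used of genes with a Benjamini-Hochberg adjusted p under 0.05. The most alike replicates were the flox libraries of neural day 8, where chi-square over its degrees of freedom was 1.5, beside 2.76 to 54.83 for other pairs. They were kept as 2 samples. No label says whether replicates were separate cultures or, beyond the title numbers, separate litters, so p-values measure the spread between these libraries, which may be technical. The same poly(A) isolation is described for all libraries, but the molecule is labelled poly(A) RNA for ES cells, EBs and neural samples and total RNA for the others, and no test mixes the labels. In bulk RNA, fewer cycling cells and less RNA of these genes per cycling cell cannot be told apart.

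Across the cell types, the summed level of both sets was lowest in neurons, and the S-phase sum was highest in ES cells. The 18 S-phase genes summed to 5571 CPM in the flox ES cell library and to 5267 and 5531 CPM in the KI ES cell libraries, against 457 and 484 CPM in flox neurons and 337 and 348 CPM in KI neurons. The 23 mitotic genes summed to 5365 CPM in flox ES cells and to 385 and 350.3 CPM in flox neurons. E8.5 control embryos stood at 4409, 4208 and 4404 CPM of S-phase and 4662, 4522 and 4680.1 CPM of mitotic transcripts, between the ES cells and the flox neural progenitors. KI progenitors had mitotic sums of 4743 and 5013 CPM, above all embryo libraries. The progenitors, TE and ExEn cultures held more mitotic than S-phase transcript, for example 3899 and 3914 against 2593 and 2612 CPM in the flox progenitors and 3029.7 and 2994 against 1706 and 1675 CPM in the flox ExEn cultures. In neurons the order was the other way round. Sums in CPM are weighted by long and abundant transcripts and differ in RNA label between the cell types, so no test was made across them. By the authors' RPKM values, which divide by transcript length, the most abundant members in the flox ES cell library were Pcna (309 RPKM), the clamp that tethers polymerases, Ube2c (179 RPKM), the ubiquitin-conjugating enzyme of the anaphase-promoting complex, and Mcm7 (166 RPKM). The least abundant were Cenpf (12.7 RPKM) and Cenpe (10.7 RPKM), long transcripts of kinetochore proteins, and Ccne2 (5.42 RPKM), an E-type cyclin.

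**Figure D1:**
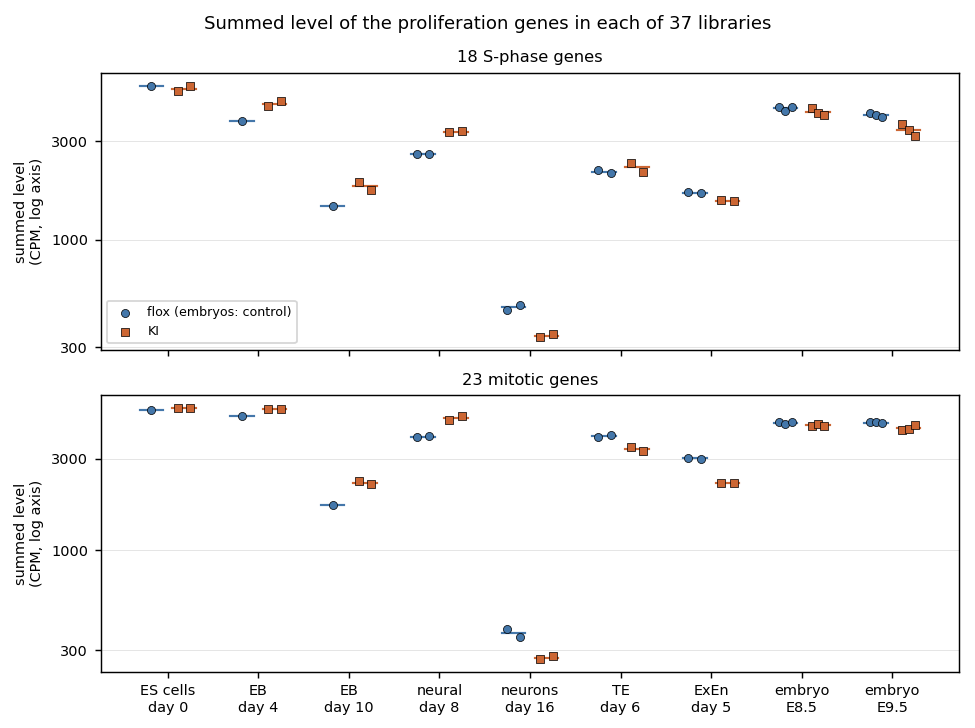
Summed level of the 18 S-phase genes (upper panel) and the 23 mitotic genes (lower panel), in CPM on a log axis, with 1 point for each of the 37 libraries by stage, circles for flox or control, squares for KI and short lines for group means. The S-phase sums are highest in ES cells, and both sets are lowest in neurons, with S-phase sums of 484 CPM or less.

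Along EB differentiation the genes were followed in the KI cells, which have 2 libraries a stage. From ES cells to day 4, 15 of 41 members fell and 3 rose by edgeR's quasi-likelihood test, beside 23.8% of all genes lower and 26.5% higher, with a median log2 fold change of -0.21 against 0.011 for all genes. E2f1, the activating E2F factor that drives S-phase entry, stood at 68.1 and 72.2 CPM in ES cells and 46.5 and 46.6 CPM in day 4 EBs. The day 4 libraries were both lower, a log2 fold change of -0.59 ± 0.078 (edgeR adjusted p = 0.00068). Mcm6 went from 445 and 454 CPM to 319 and 325 CPM without overlap, a log2 fold change of -0.48 ± 0.071 (edgeR adjusted p = 0.0012). Cdt1, at 238 and 256 CPM in ES cells and 172 and 166 CPM in day 4 EBs, had a log2 fold change of -0.55 ± 0.12 (edgeR adjusted p = 0.0078). Birc5 (survivin, of the chromosomal passenger complex) and Ube2c were lower in both day 4 libraries. Birc5 went from 149.6 and 151 CPM to 112 and 109.9 CPM (-0.43 ± 0.085, edgeR adjusted p = 0.0043), and Ube2c from 242 and 238 CPM to 185 and 184 CPM (-0.38 ± 0.091, edgeR adjusted p = 0.011). Mki67, which coats mitotic chromosomes, went the other way, from 407 and 382 CPM to 599 and 567 CPM, a log2 fold change of 0.57 ± 0.095 (edgeR adjusted p = 0.0020). Cenpf and the E cyclin Ccne1 also rose, by 0.26 and 0.45, and the call of Cenpf was lost without any 1 of the 4 libraries. Fewer members were called lower without any 1 of these 4 libraries, at a share near or below that of all genes lower in the same fit. With scaling by library size alone, which moved the median of all genes to 0.11, the count was 8. All genes lower then numbered 3027 of 15676, a like share. The call of Ube2c was lost in all 4 of these omissions and that of Cdt1 in all but that of the ES cell library of clone 27, with edgeR adjusted p from 0.060 to 0.085. Pluripotency markers fell in 6 of 8, from sums of 5430.1 and 5887 CPM to 1644 and 1703 CPM. Trophoblast markers rose in 5 of 8 and fell in 1 (158 and 157 CPM to 914 and 849 CPM, with Elf5 at 0 in both ES cell libraries), and extraembryonic endoderm markers rose in 6 of 10 and fell in 2 (50.5 and 73.5 CPM to 283 and 221 CPM). Their part in the result was not tested.

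Between day 4 and day 10 the genes fell together: 40 of 41 members were lower and 0 higher by edgeR and by DESeq2 (36.6% of all genes lower and 36.7% higher), with a median log2 fold change of -1.34, against 0.0026 for all genes. Ccne1, the cyclin that activates CDK2 at S-phase entry, showed the largest fall, from 197 and 198 CPM to 23.5 and 24.8 CPM, a log2 fold change of -3.07 ± 0.084 (edgeR adjusted p = 5.6e-07). Mcm5 went from 502 and 530.0 CPM to 145 and 125 CPM, with no overlap and a log2 fold change of -1.98 ± 0.10 (edgeR adjusted p = 3.4e-06). Rrm2 went from 320.2 and 340.1 CPM to 103 and 95.2 CPM, a log2 fold change of -1.78 ± 0.083 (edgeR adjusted p = 2.7e-06). Of the mitotic genes, all 23 fell. Cenpa, the histone H3 variant of centromeres, went from 114 and 107 CPM to 28.8 and 34.2 CPM, a log2 fold change of -1.85 ± 0.10 (edgeR adjusted p = 4.6e-06). Ccnb2, a B-type cyclin, and Plk1, the polo-like kinase of mitotic entry, fell as well. Ccnb2 went from 116 and 115 CPM to 29.6 and 38.0 CPM (-1.81 ± 0.12, edgeR adjusted p = 1.1e-05) and Plk1 from 231 and 229 CPM to 64.9 and 70.1 CPM (-1.81 ± 0.081, edgeR adjusted p = 2.3e-06). The 1 member that did not pass was Ccne2, the second E cyclin, at 29.6 and 31.0 CPM at day 4 and 31.1 and 29.1 CPM at day 10, which overlapped (-0.055 ± 0.092, edgeR adjusted p = 0.61). The 40 calls were all kept when any 1 KI library of these stages was left out and in the other settings tried. The flox course has 1 library a stage and no test. There the median log2 ratio of the S-phase genes was -0.56 from ES cells to day 4 and -1.14 from day 4 to day 10, and that of the mitotic genes -0.18 and -1.67. All 41 ratios of the second step were below 0. Other genes of the same pathways, listed beside the members, moved alike in the second step: 33 of 33 other replication genes and 37 of 39 other mitotic genes fell. Of 16 CDK inhibitor and pocket protein genes 10 rose and 2 fell, led by Cdkn1c, which encodes p57 (3.61 ± 0.12, edgeR adjusted p = 9.0e-07), and Cdkn2b, which encodes p15 (2.79 ± 0.21, edgeR adjusted p = 2.6e-05). Day 10 EBs held 6364 and 15346 CPM summed over 6 mesenchyme markers in KI, against 116 and 100.3 CPM at day 4, and all 6 rose. All 10 extraembryonic endoderm markers rose (283 and 221 CPM to 4353 and 4348 CPM), as did all 7 heart markers (23.5 and 23.05 CPM to 362 and 248 CPM) and 5 of 7 blood markers (3.00 and 2.38 CPM to 319.9 and 336 CPM). Pluripotency markers fell in 6 of 8 and rose in 1 (1644 and 1703 CPM to 195 and 149 CPM). The part of cell composition in the fall was not tested.

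**Figure D2:**
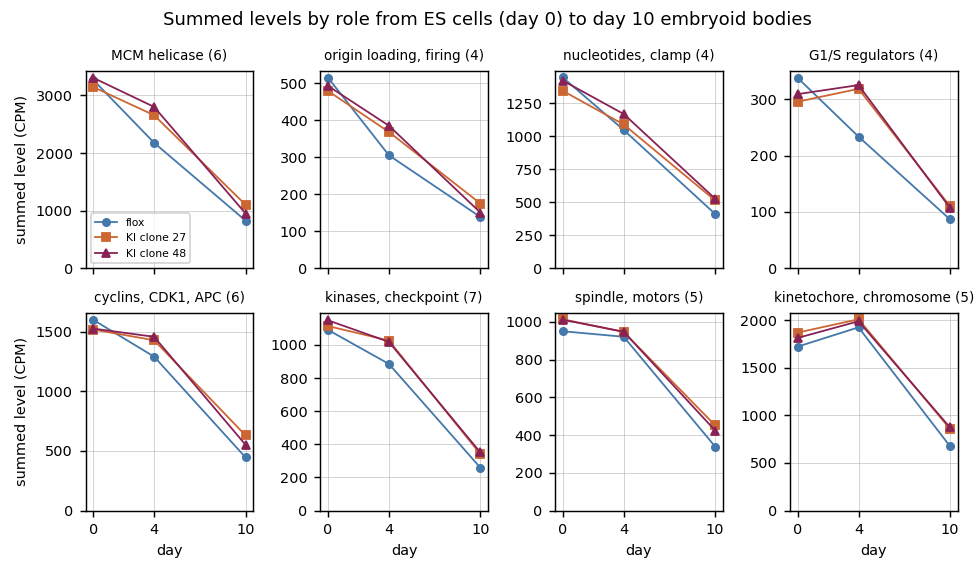
Summed level in CPM (vertical axis, from 0) of the members of each of 8 roles at days 0, 4 and 10, with 1 line for the flox libraries and 1 for each KI clone. For each role and in all 3 lines the sum at day 10 lies below that at day 0.

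Of the comparisons made here, the largest median change was between neural progenitors and neurons, where all 41 members fell in flox and all 41 in KI. In flox the median log2 fold change was -3.20 (38.7% of all genes lower and 38.4% higher, with a median of -0.024), -2.63 for the S-phase and -3.61 for the mitotic genes. In KI the medians were -4.10, -3.50 and -4.33 (39.2% of all genes lower and 40.7% higher, with a median of 0.013). Rrm2 fell in flox from 219.9 and 225 CPM at day 8 to 16.6 and 16.2 CPM at day 16, a log2 fold change of -3.90 ± 0.10 (edgeR adjusted p = 1.4e-11). In KI it fell from 306 and 318 CPM to 14.8 and 17.05 CPM (-4.41 ± 0.11, edgeR adjusted p = 3.3e-12). Cdc6, the ATPase that loads the helicase, fell from 37.6 and 38.2 CPM to 3.79 and 3.17 CPM in flox (-3.57 ± 0.12, edgeR adjusted p = 5.6e-11) and from 52.8 and 53.2 CPM to 2.83 and 2.57 CPM in KI (-4.42 ± 0.12, edgeR adjusted p = 7.3e-12). Cdc45, part of the active helicase, fell by 3.23 in flox, and Mcm3 fell by 4.27 in KI. Among mitotic genes, Cenpa stood at 79.6 and 80.7 CPM in flox progenitors and 3.85 and 4.50 CPM in flox neurons, a log2 fold change of -4.41 ± 0.13 (edgeR adjusted p = 2.3e-11). Cenpf and Ccnb1, the main cyclin partner of CDK1 at mitosis, fell by 4.23 and 4.05 in flox. In KI the largest mitotic falls were those of Top2a (topoisomerase II alpha, which untangles sister chromatids), from 930.3 and 978 CPM to 36.1 and 36.6 CPM (-4.84 ± 0.10, edgeR adjusted p = 1.9e-12), of Ccnb1 (-4.83) and of Cenpa (-4.79). No library of one day overlapped with the other day for any gene just named, and all 41 calls in each genotype were kept in every setting and omission tried. Beside this fall, neuron markers rose in sum from 2005 and 2015 CPM to 5195 and 4950.3 CPM in flox (9 of 10 higher) and from 1417 and 1256 CPM to 8165 and 9039 CPM in KI (10 of 10). Mesenchyme markers went from 358 and 361 CPM to 3818 and 4152 CPM in flox (5 of 6 higher, 0 lower) and from 185 and 137 CPM to 1219 and 1023 CPM in KI (5 higher, 1 lower). Astrocyte markers were higher in 4 of 5 in both genotypes, at 38.3 and 38.7 CPM and then 289 and 287 CPM in flox and 38.9 and 39.2 CPM and then 175 and 193 CPM in KI. Progenitor markers were lower in 7 of 8 and higher in 1 in both, going from 1612 and 1632 CPM to 721 and 702 CPM in flox and from 1669.6 and 1639.7 CPM to 651 and 774 CPM in KI. The part of cell composition in the fall was not tested.

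At neural day 8, KI progenitors had more transcript of the proliferation genes than flox progenitors, with a median fold of 1.25. Of 41 members 22 rose and 0 fell by edgeR (6.30% of all genes higher and 13.2% lower), and 36 had an unadjusted p under 0.05. DESeq2 called 31 higher and 0 lower, beside 1246 higher and 1801 lower of 16439 genes tested. All 41 log2 fold changes were above 0, from 0.15 to 0.61. The median was 0.32, against 0.0047 for all genes. The S-phase genes summed to 2593 and 2612 CPM in flox and 3317 and 3356 CPM in KI, and the mitotic genes to 3899 and 3914 CPM in flox and 4743 and 5013 CPM in KI. By role, 5 of 6 MCM subunits, 3 of 4 origin factors, 1 of 4 clamp and nucleotide genes and 1 of 4 G1/S regulators rose. So did 4 of 6 cyclin, CDK1 and anaphase-promoting complex genes, 3 of 7 kinases and checkpoint genes, 2 of 5 spindle genes and 3 of 5 kinetochore and chromosome genes. Mcm6, whose promoter holds E2F matches at 3 separate places, stood at 171 and 172 CPM in flox and 249.7 and 268 CPM in KI. Both KI libraries were above both flox libraries, a log2 fold change of 0.61 ± 0.090 (edgeR adjusted p = 0.00043). E2f1 was at 84.8 and 87.8 CPM in flox and 121 and 128 CPM in KI, again without overlap, a log2 fold change of 0.54 ± 0.11 (edgeR adjusted p = 0.0038). Rrm2 was at 219.9 and 225 CPM in flox and 306 and 318 CPM in KI, a log2 fold change of 0.50 ± 0.092 (edgeR adjusted p = 0.0020). The mitotic genes with the largest changes were Bub1b, a checkpoint protein, Aurkb, the kinase of the chromosomal passenger complex, and Plk1, and in each the KI libraries lay above the flox libraries. Bub1b stood at 123 and 120.5 CPM in flox and 168 and 174 CPM in KI, a log2 fold change of 0.50 ± 0.086 (edgeR adjusted p = 0.0012). Aurkb stood at 71.0 and 74.8 CPM in flox and 99.2 and 102 CPM in KI, a log2 fold change of 0.48 ± 0.10 (edgeR adjusted p = 0.0040), and Plk1 at 99.9 and 97.5 CPM in flox and 129.8 and 131 CPM in KI, a log2 fold change of 0.41 ± 0.083 (edgeR adjusted p = 0.0034). The members that did not pass were all above 0 too, among them Pcna (0.27 ± 0.10, edgeR adjusted p = 0.094), Mcm2 (0.28 ± 0.13, edgeR adjusted p = 0.18) and Ccna2, the S and G2 cyclin (0.27 ± 0.10, edgeR adjusted p = 0.069).

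The number of members called at day 8 changed with the libraries in the fit, which held those of day 8 and day 16. With only the 4 day 8 libraries in the fit, an alternative chosen after seeing the data, 39 of 41 members were called higher, beside 1803 of 15602 genes tested, against 1036 of 16439 with both days in the fit. Without flox library 1 the count was 6, without flox library 2 it was 7, without clone 27 it was 14 and without clone 48 it was 10. All genes called higher then numbered 470 of 16759, 455 of 16698, 632 of 16777 and 671 of 16779. Mcm6, Rrm2 and Bub1b were called in every one of these fits. E2f1 lost its call without clone 48 (edgeR adjusted p = 0.052), Aurkb without flox library 1 (edgeR adjusted p = 0.067) and Plk1 without flox library 2 (edgeR adjusted p = 0.074). Other genes of the pathways went the same way: 14 of 33 other replication genes and 19 of 39 other mitotic genes rose, led by the kinetochore gene Spc25 (0.91 ± 0.10, edgeR adjusted p = 5.5e-05), the kinase gene Nek2 (0.58 ± 0.11, edgeR adjusted p = 0.0018) and the polymerase genes Pold1 (0.48 ± 0.11, edgeR adjusted p = 0.0075) and Pole (0.45 ± 0.085, edgeR adjusted p = 0.0023). Of 14 G1 cyclin, kinase, E2F and Myc genes 5 rose and 2 fell. Ccnd1, cyclin D1, had a log2 fold change of 1.31 ± 0.094 (edgeR adjusted p = 1.6e-06), and Cdk6, its kinase partner, was higher too (0.99 ± 0.15, edgeR adjusted p = 0.00062), while Myc (-0.80 ± 0.14, edgeR adjusted p = 0.0012) and Ccnd2 (-0.47 ± 0.13, edgeR adjusted p = 0.025) were lower. The CDK inhibitor Cdkn1a (p21) was higher as well (0.60 ± 0.14, edgeR adjusted p = 0.011), as were 5 of 10 p53 targets including Cdkn1a. Among neuron markers 9 of 10 were lower in KI at day 8, with sums of 2005 and 2015 CPM in flox and 1417 and 1256 CPM in KI and no marker at 0. Progenitor markers summed to 1612 and 1632 CPM in flox and 1669.6 and 1639.7 CPM in KI, with 3 of 8 higher and 2 of 8 lower. Mesenchyme markers were lower in 5 of 6, at 358 and 361 CPM in flox and 185 and 137 CPM in KI. Their part in the result was not tested.

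At neural day 16 the order was reversed: KI neurons had less of these transcripts than flox neurons, at levels far below those of progenitors. Of 41 members 24 fell and 0 rose (19.7% of all genes lower and 27.1% higher), 39 log2 fold changes were below 0, and the median was -0.41, against 0.086 for all genes. By edgeR 26 had an unadjusted p under 0.05, DESeq2 called 0 higher, and 1 member was higher without flox library 1. The S-phase genes summed to 457 and 484 CPM in flox and 337 and 348 CPM in KI, and the mitotic genes to 385 and 350.3 CPM in flox and 269.9 and 279 CPM in KI. Among the S-phase roles, 5 of 6 MCM subunits and 3 of 4 origin factors fell, but 1 of 4 clamp and nucleotide genes and 1 of 4 G1/S regulators. Mcm2 stood at 51.6 and 69.2 CPM in flox and 31.1 and 25.7 CPM in KI, the flox pair being wide apart but above both KI libraries, a log2 fold change of -1.06 ± 0.13 (edgeR adjusted p = 6.5e-05). Cdt1 was at 16.3 and 19.2 CPM in flox and 9.26 and 8.60 CPM in KI with no overlap, a log2 fold change of -0.96 ± 0.11 (edgeR adjusted p = 3.0e-05). Tyms, thymidylate synthase, was at 14.2 and 12.4 CPM in flox and 7.79 and 5.68 CPM in KI, a log2 fold change of -0.96 ± 0.15 (edgeR adjusted p = 0.00024). The transcript used for Tyms is a non-coding record that shares nearly all reads with the coding one. Rrm1 and Rrm2, the other nucleotide genes, had log2 fold changes of -0.013 ± 0.11, edgeR adjusted p = 0.93 and -0.013 ± 0.10, edgeR adjusted p = 0.92. Of mitotic genes 14 of 23 fell: 4 of 6 cyclin, CDK1 and anaphase-promoting complex genes, 5 of 7 kinases and checkpoint genes, 3 of 5 spindle genes and 2 of 5 kinetochore and chromosome genes. Cdc20 was at 17.4 and 19.1 CPM in flox and 10.4 and 10.9 CPM in KI, a log2 fold change of -0.74 ± 0.093 (edgeR adjusted p = 5.6e-05). Top2a was at 59.7 and 55.7 CPM in flox and 36.1 and 36.6 CPM in KI, a log2 fold change of -0.64 ± 0.091 (edgeR adjusted p = 0.00015), and Aurkb at 7.001 and 7.27 CPM in flox and 4.09 and 5.10 CPM in KI, a log2 fold change of -0.60 ± 0.12 (edgeR adjusted p = 0.0016). For all 3 the KI libraries lay below the flox libraries.

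Scaling by library size alone shifted the median of all genes at day 16 from 0.086 to -0.12 and the calls over all genes from 4459 higher and 3245 lower to 2059 higher and 4784 lower. The members then had medians of -0.53 (S-phase) and -0.65 (mitotic), with 14 and 21 lower. With only the 4 day 16 libraries in the fit the calls over all genes were 2467 higher and 3219 lower of 15860, with a median of -0.0028, and 22 members were lower and 0 higher. Other replication genes were split, with 5 of 33 higher and 10 lower, including Lig1, the DNA ligase of Okazaki fragments (0.45 ± 0.090, edgeR adjusted p = 0.0015), and Dtl, of the ubiquitin ligase that degrades CDT1 (-0.82 ± 0.10, edgeR adjusted p = 3.6e-05). Of 39 other mitotic genes 14 fell. Of the G1 list 7 of 14 fell, led by Ccnd3 (-2.05 ± 0.10, edgeR adjusted p = 3.3e-08) and Cdk6 (-1.24 ± 0.17, edgeR adjusted p = 9.3e-05). The CDK inhibitor genes Cdkn2a and Cdkn2b fell as well, by 2.32 and 1.54, and Cdkn2d rose by 0.56. Neuron markers were higher in KI in 10 of 10, with sums of 5195 and 4950.3 CPM in flox and 8165 and 9039 CPM in KI. Mesenchyme markers were lower in 6 of 6 (3818 and 4152 against 1219 and 1023 CPM) and astrocyte markers lower in 3 and higher in 1 of 5 (289 and 287 against 175 and 193 CPM), with no marker of these lists at 0. The part of these cells in the result was not tested.

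The change of the KI effect between the days was itself tested. All 41 differences were below 0, and 35 passed as lower and 0 as higher (14.0% and 19.2% of all genes), 15 S-phase and 20 mitotic. The median was -0.74 against 0.084 for all genes, and 38 members had an unadjusted p under 0.05. DESeq2 called 37 lower and 0 higher, beside 2379 lower and 2665 higher of 16439 genes tested. Cdt1 went from 90.8 and 92.3 CPM in flox and 135 and 120.1 CPM in KI at day 8 to 16.3 and 19.2 CPM in flox and 9.26 and 8.60 CPM in KI at day 16, a difference of effects of -1.45 ± 0.15 (edgeR adjusted p = 2.6e-05). Mcm3 went from 189 and 189 CPM in flox and 256 and 249.4 CPM in KI to 28.1 and 27.9 CPM in flox and 14.9 and 13.5 CPM in KI (-1.38 ± 0.13, edgeR adjusted p = 1.3e-05). Mcm2 also differed (-1.33 ± 0.19, edgeR adjusted p = 0.00024). In Cdt1 and Mcm3 KI lay above flox at day 8 and below it at day 16, in all libraries. Of mitotic genes the largest differences were those of Cdc20 (-1.15 ± 0.13, edgeR adjusted p = 4.1e-05), Aurkb (-1.08 ± 0.16, edgeR adjusted p = 0.00028) and Bub1b (-1.03 ± 0.13, edgeR adjusted p = 0.00013), the first at 153 and 153 CPM in flox and 203 and 198 CPM in KI at day 8. The count ran from 25 to 34 when 1 library was left out, and was 36 with the flox number or KI clone as a block.

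**Figure D3:**
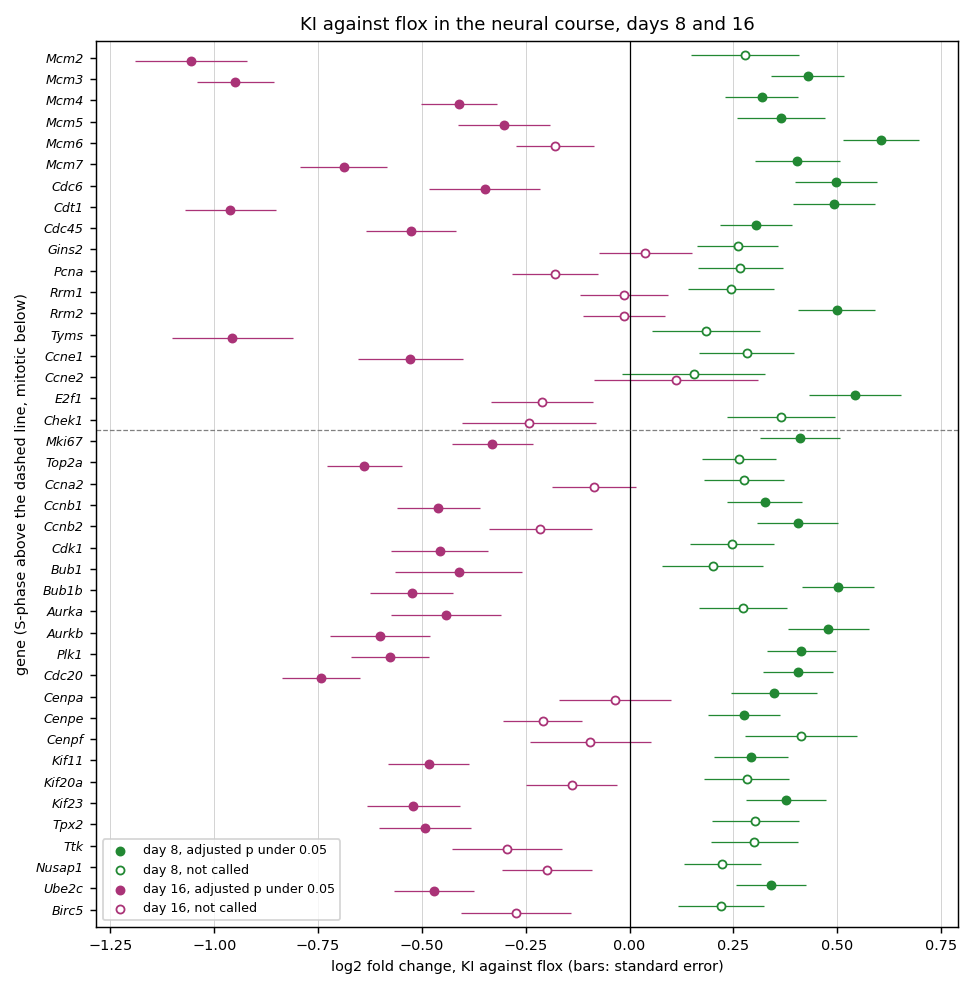
Log2 fold change of KI against flox (horizontal axis, bars are standard errors) of each of the 41 genes at neural day 8 and day 16, filled where the edgeR adjusted p was under 0.05, S-phase genes above the dashed line. All day 8 points lie right of 0 and 39 of the day 16 points lie left of it.

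In TE cultures at day 6 most mitotic genes fell in KI, while the S-phase genes changed in both directions. Of 18 S-phase genes 6 rose and 4 fell, and of 23 mitotic genes 2 rose and 16 fell, beside 26.7% of all genes higher and 24.2% lower. The S-phase shares were thus near those of all genes in both directions. The share of all members higher was below that of all genes. The median log2 fold change was 0.077 for the S-phase and -0.24 for the mitotic genes, against 0.0053 for all genes. The genes that rose included E2f1, both E cyclins, Cdt1 and both ribonucleotide reductase genes. Ccne2 stood at 8.68 and 9.26 CPM in flox and 19.2 and 17.3 CPM in KI, a log2 fold change of 1.03 ± 0.13 (edgeR adjusted p = 1.2e-05), and both KI libraries were above the flox libraries. Rrm2 was at 128 and 115 CPM in flox and 205 and 190.1 CPM in KI, a log2 fold change of 0.71 ± 0.069 (edgeR adjusted p = 1.1e-06), and Cdt1 at 116 and 107 CPM in flox and 172 and 145 CPM in KI, a log2 fold change of 0.52 ± 0.089 (edgeR adjusted p = 0.00028), without overlap in either gene. Ccne1 and E2f1 rose by 0.48 and 0.50, while the checkpoint kinase gene Chek1 (-0.37), the clamp gene Pcna (-0.17), Mcm4 (-0.20) and Mcm6 (-0.21) fell. Rrm1, Cdk1 and Kif20a, at log2 fold changes of 0.15, 0.15 and 0.16, were called in none of the 6 other settings, each of which left 5 members higher, as did leaving out flox library 1, flox library 2 or clone 27. Cdc20 was the mitotic gene with the largest fall, at 291 and 276 CPM in flox and 205 and 187 CPM in KI, a log2 fold change of -0.52 ± 0.061 (edgeR adjusted p = 5.6e-06). Kif23, a motor of the central spindle, was at 106 and 113 CPM in flox and 87.7 and 75.2 CPM in KI, a log2 fold change of -0.42 ± 0.077 (edgeR adjusted p = 0.00041), and Ube2c at 149 and 145 CPM in flox and 112 and 109 CPM in KI, a log2 fold change of -0.40 ± 0.060 (edgeR adjusted p = 6.6e-05). The KI libraries were lower in each. By role, 5 of 6 cyclin, CDK1 and anaphase-promoting complex genes, 5 of 7 kinases and checkpoint genes, 4 of 5 kinetochore and chromosome genes and 2 of 5 spindle genes fell.

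Of the other pathway genes in TE cultures, 6 of 33 replication genes rose and 5 fell, and 3 of 39 mitotic genes rose and 17 fell (26.7% of all genes higher and 24.2% lower), among the latter Foxm1, the factor that activates mitotic genes (-0.57 ± 0.070, edgeR adjusted p = 1.1e-05), and Aspm (-0.53 ± 0.073, edgeR adjusted p = 3.0e-05). The D cyclins Ccnd2 (1.199 ± 0.18, edgeR adjusted p = 0.00091) and Ccnd1 (0.44 ± 0.12, edgeR adjusted p = 0.0075) rose, and the kinases Cdk6 and Cdk4 fell by 0.73 and 0.51. Cdkn1c stood at 317 and 309 CPM in flox and 1295 and 1025 CPM in KI, a log2 fold change of 1.90 ± 0.26 (edgeR adjusted p = 0.0044), and Cdkn1b (p27) fell by 0.67. Of 10 p53 targets 8 rose, Mdm2 by 0.90. Trophoblast markers were higher in KI in 7 of 8 and lower in 1, with sums of 3228 and 3155 CPM in flox and 5878 and 5589.8 CPM in KI. The 1 lower marker was Elf5 (15.4 and 18.4 against 0.788 and 1.62 CPM). Pluripotency markers were lower in 7 of 8, at 891 and 885 CPM in flox and 356 and 504 CPM in KI. No marker of either list was at 0. Neural progenitor markers were lower in 5 of 8 and higher in 1 (435 and 411 CPM in flox, 88.1 and 105 CPM in KI), neuron markers lower in 4 of 10 and higher in 1 (103 and 107 against 27.7 and 29.3 CPM), and mesenchyme markers lower in 3 of 6 and higher in 1 (316 and 310.3 against 83.3 and 135 CPM). Extraembryonic endoderm markers were higher in 4 of 10 and lower in 3 (450.4 and 436 against 599 and 593 CPM). The part of such cells in the result was not tested.

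In ExEn cultures at day 5 most members fell in KI: 27 of 41 were lower and 2 higher (17.4% and 18.1% of all genes), with a median of -0.33 against 0.00056 for all genes. All 23 mitotic log2 fold changes were below 0 and 20 passed, and the mitotic genes summed to 3029.7 and 2994 CPM in flox and 2242 and 2225 CPM in KI. Ttk, whose promoter holds CHR and CCAAT, stood at 62.7 and 55.5 CPM in flox and 32.9 and 30.3 CPM in KI, a log2 fold change of -0.90 ± 0.091 (edgeR adjusted p = 3.6e-06). Mki67 was at 355 and 346 CPM in flox and 215 and 207 CPM in KI, a log2 fold change of -0.73 ± 0.049 (edgeR adjusted p = 6.0e-08), and Aurka, the centrosome kinase, at 99.8 and 92.6 CPM in flox and 59.8 and 60.6 CPM in KI, a log2 fold change of -0.67 ± 0.067 (edgeR adjusted p = 2.9e-06). For these 3 genes the KI libraries lay well below both flox libraries. All 7 kinase and checkpoint genes and all 5 kinetochore and chromosome genes fell, with 4 of 6 cyclin, CDK1 and anaphase-promoting complex genes and 4 of 5 spindle genes. Of the S-phase genes 7 fell and 2 rose, and 4 of the 7 were MCM subunits. Chek1, the kinase of the replication checkpoint, was at 20.3 and 17.9 CPM in flox and 11.1 and 10.2 CPM in KI, a log2 fold change of -0.84 ± 0.13 (edgeR adjusted p = 0.00021), and Pcna at 129 and 134 CPM in flox and 102 and 101 CPM in KI, a log2 fold change of -0.37 ± 0.058 (edgeR adjusted p = 0.00018). E2f1 went the other way, at 14.0 and 16.1 CPM in flox and 21.4 and 22.3 CPM in KI, a log2 fold change of 0.55 ± 0.11 (edgeR adjusted p = 0.0011). Rrm2, the second higher gene (0.28 ± 0.070, edgeR adjusted p = 0.0062), lost its call when flox library 2 was left out.

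The other pathway genes fell too in ExEn cultures, 14 of 33 replication genes (1 rose) and 26 of 39 mitotic genes (1 rose), among them Chaf1b (-0.77 ± 0.10, edgeR adjusted p = 5.3e-05), Fbxo5 (-0.94 ± 0.16, edgeR adjusted p = 0.00053) and Cdc25c, the phosphatase that activates CDK1 (-0.87 ± 0.14, edgeR adjusted p = 0.00027). Mycn fell most in the G1 list, at 120.3 and 126 CPM in flox and 19.7 and 24.9 CPM in KI, a log2 fold change of -2.47 ± 0.10 (edgeR adjusted p = 4.1e-10), and 6 of 14 genes of that list fell. Of the p53 targets 7 of 10 rose, and Cdkn1a had a log2 fold change of 0.25 ± 0.047 (edgeR adjusted p = 0.00091). Endoderm markers were lower in KI in 10 of 10, with sums of 5434 and 5352 CPM in flox and 2736 and 2578 CPM in KI and no marker at 0. Mesenchyme markers, lower in 4 and higher in 1 of 6, were at 2159 and 2071 CPM in flox and 355 and 547 CPM in KI. Trophoblast markers, higher in 5 and lower in 1 of 8, were at 3252 and 3266 CPM in flox and 5059 and 4227 CPM in KI. Their part in the result was not tested.

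The KI effect differed between TE and ExEn cultures in 15 of 41 members, 14 with a higher effect in TE and 1 with a lower (18.3% and 17.0% of all genes). Ccne2 had the largest difference (1.21 ± 0.18, edgeR adjusted p = 0.00012). It stood at 8.68 and 9.26 CPM in flox and 19.2 and 17.3 CPM in KI TE cultures, and at 27.8 and 25.6 CPM in flox and 24.8 and 22.3 CPM in KI ExEn cultures, where both KI values were below both flox values. Rrm2 (0.43 ± 0.10, edgeR adjusted p = 0.0033) and Cdt1 (0.44 ± 0.13, edgeR adjusted p = 0.019) had a higher KI effect in TE. Ttk (0.64 ± 0.13, edgeR adjusted p = 0.0013), Cenpe, a kinetochore motor (0.52 ± 0.095, edgeR adjusted p = 0.00065), and Aurka (0.51 ± 0.093, edgeR adjusted p = 0.00074) had a lower KI effect in ExEn. Cenpe was at 116 and 132 CPM in flox and 127 and 130.2 CPM in KI TE cultures, which overlapped, and at 147 and 143 CPM in flox and 104 and 106 CPM in KI ExEn cultures, which did not. The 1 member with the lower effect in TE was Ccnb2 (-0.25 ± 0.091, edgeR adjusted p = 0.044), which DESeq2 did not call. The count of 14 was smaller without either TE flox library, TE clone 27 or either ExEn flox library. The share was then nearer to that of all genes higher in the same fit. With the flox number or KI clone as a block the count was 19, all 5 added calls being S-phase genes. All genes higher with the block numbered 3095 of 15532. Rrm2, Ccne2, Mki67, Aurka, Cenpe and Ttk were called in every setting. Cdt1 lost its call without TE flox library 2, TE clone 27, either ExEn flox library or ExEn clone 48, with edgeR adjusted p from 0.061 to 0.12. Levels themselves were mostly higher in TE than in ExEn cultures, in 31 of 41 members in flox (4 lower) and in 35 in KI (1 lower), beside 32.2% of all genes higher and 32.5% lower in flox and 32.3% higher and 30.8% lower in KI. The cultures differ in medium, days and transgene, and these comparisons share their libraries with those above. Ccnb2 was at 56.9 and 57.7 CPM in flox ExEn and 152 and 152 CPM in flox TE cultures (1.41 ± 0.065, edgeR adjusted p = 2.2e-10), with Aurkb (1.04 ± 0.077, edgeR adjusted p = 2.7e-08), Bub1b (0.95), E2f1 (1.24 ± 0.10, edgeR adjusted p = 1.0e-07) and Cdt1 (1.06) also higher in TE. In KI the largest were Cdt1 (1.50 ± 0.093, edgeR adjusted p = 1.1e-08), Aurkb (1.34 ± 0.079, edgeR adjusted p = 2.5e-09), E2f1 (1.197), Ccnb2 (1.16), Cdc45 (1.09) and Bub1b (1.05). Ccne2 was lower in TE in both genotypes (-1.57 ± 0.13, edgeR adjusted p = 9.2e-08 in flox and -0.36 ± 0.12, edgeR adjusted p = 0.020 in KI). The latter call was lost without TE clone 48 or ExEn clone 27. Without TE flox library 1 or ExEn flox library 1, 2 members rather than 4 were lower in flox.

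**Figure D4:**
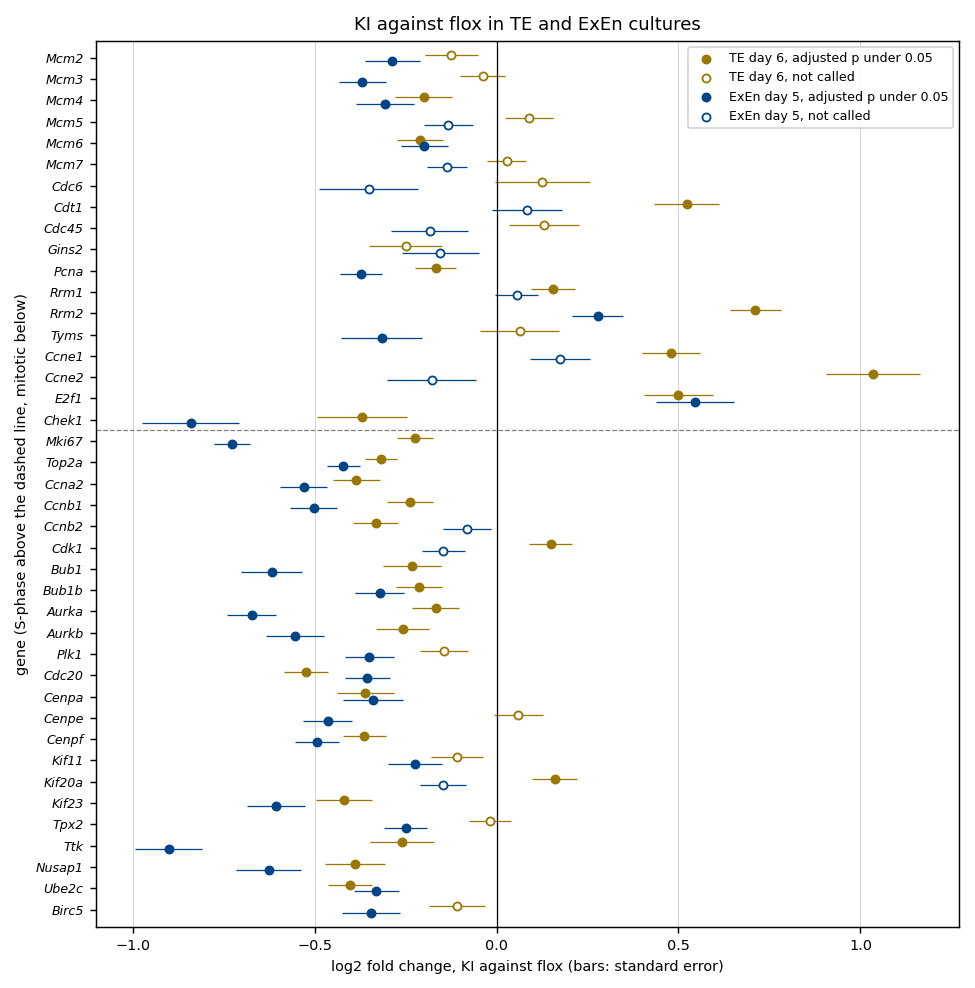
Log2 fold change of KI against flox (horizontal axis, bars are standard errors) of each of the 41 genes in TE and ExEn cultures, filled where the edgeR adjusted p was under 0.05, S-phase genes above the dashed line. All 23 mitotic points of ExEn lie left of 0, and Ccne2 in TE lies farthest right.

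In embryos at E8.5 no member passed edgeR's test (3.63% of all genes were higher and 1.83% lower), 2 had an unadjusted p under 0.05 and DESeq2 called 0. The median log2 fold change was -0.045 against -0.0097 for all genes, and the range -0.17 to 0.086. Mcm2 stood at 444, 422 and 447 CPM in control and 424, 413 and 399 CPM in KI, which overlapped (-0.087 ± 0.059, edgeR adjusted p = 0.46), and Pcna at 465, 465 and 476 CPM in control and 474, 436 and 418 CPM in KI (-0.081 ± 0.062, edgeR adjusted p = 0.52). Mki67 was at 566, 551 and 578 CPM in control and 459, 544 and 524 CPM in KI, every KI embryo lying below the controls (-0.15 ± 0.067, edgeR adjusted p = 0.22). Ccnb1 was at 230.5, 205 and 229 CPM in control and 232, 217 and 200.2 CPM in KI, with overlap (-0.032 ± 0.071, edgeR adjusted p = 0.86). Of the other lists, Mad2l1, a spindle checkpoint gene (-0.32 ± 0.069, edgeR adjusted p = 0.0083), Kif15 (-0.22 ± 0.063, edgeR adjusted p = 0.0496), Ccnd2 (-0.35 ± 0.072, edgeR adjusted p = 0.0068) and Cdc25a (-0.20 ± 0.053, edgeR adjusted p = 0.035) were lower and Cdkn1c higher (1.58 ± 0.25, edgeR adjusted p = 0.010). Each number in the E8.5 titles is shared by 1 control and 1 KI embryo, which this fit did not pair. Within these numbers Cdkn1a had log2 ratios of -0.56, -0.73 and -0.94, and Mycn of 0.24, 0.32 and 0.27. Blood markers summed to 702, 1171 and 1447 CPM in control and 175, 115 and 213 CPM in KI embryos without overlap, although none of the 7 passed the test, and none was at 0. Of 5 trophoblast giant cell markers, with sums of 75.1, 87.7 and 74.5 against 184, 178 and 228 CPM, Hand1, which the heart also uses, made up nearly all and was called higher, while Prl3d1 was at 0 in all 6 embryos. Trophoblast markers summed to 687, 580.1 and 555 against 835, 765 and 888 CPM (1 of 8 higher, 1 lower) and neural progenitor markers to 552, 586 and 596 against 471, 507 and 468 CPM (1 of 8 lower). Their part in these values was not tested.

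At E9.5, 14 of 41 members were lower in KI embryos and 0 higher (14.9% of all genes lower, 14.6% higher), 10 of 18 S-phase and 4 of 23 mitotic genes. The share of mitotic genes lower was near that of all genes. By edgeR 18 had an unadjusted p under 0.05, and DESeq2 called no member higher. The S-phase median was -0.24 and the mitotic median -0.067, against 0.0095 for all genes. S-phase sums were 4133, 3999 and 3945 CPM in control and 3623, 3417 and 3196 CPM in KI embryos, with no overlap. Mitotic sums were 4653, 4637 and 4584 CPM in control and 4254, 4283 and 4500.2 CPM in KI embryos, also without overlap. All 4 clamp and nucleotide genes fell, with 3 of 4 G1/S regulators, 2 of 6 MCM subunits and 1 of 4 origin factors. Ccne1 stood at 105, 103 and 102 CPM in control and 61.6, 52.9 and 41.9 CPM in KI, every KI embryo well below every control, a log2 fold change of -0.997 ± 0.10 (edgeR adjusted p = 1.4e-06). Rrm2 was at 367, 355 and 340.3 CPM in control and 253, 232 and 209 CPM in KI, a log2 fold change of -0.62 ± 0.071 (edgeR adjusted p = 3.1e-06). Cdc6 was at 72.4, 67.1 and 84.1 CPM in control and 54.7, 51.0 and 54.5 CPM in KI, a log2 fold change of -0.49 ± 0.080 (edgeR adjusted p = 0.00015). In both genes the groups did not overlap. Pcna, Tyms, Rrm1 and Ccne2 fell by 0.41, 0.47, 0.37 and 0.43, and Mcm2, Mcm5 and E2f1 by 0.30, 0.24 and 0.25. Plk1 was at 226, 226 and 216 CPM in control and 190.2, 173 and 187 CPM in KI, a log2 fold change of -0.29 ± 0.060 (edgeR adjusted p = 0.0013). Ccna2 was at 227, 213 and 217 CPM in control and 187, 173 and 184 CPM in KI, a log2 fold change of -0.28 ± 0.055 (edgeR adjusted p = 0.00070), and Mki67 at 637, 683 and 682 CPM in control and 532, 561 and 595 CPM in KI, a log2 fold change of -0.26 ± 0.067 (edgeR adjusted p = 0.0066). The KI embryos lay below the controls in all 3 mitotic genes, and Aurka was the fourth (-0.22). The embryo titles carry numbers, one shared by 2 control and 2 KI embryos and another by 1 of each. Within these numbers the S-phase median log2 ratios were -0.24 and -0.28. The mitotic medians were -0.074 and -0.0073, with 16 and 12 of 23 ratios below 0. Ccne1 had log2 ratios of -0.86 and -1.29, and Rrm2 of -0.58 and -0.70.

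Other replication genes fell in 14 of 33 at E9.5, including Fen1, the flap endonuclease of Okazaki fragments (-0.56 ± 0.070, edgeR adjusted p = 9.3e-06), and Gins3 (-0.58 ± 0.15, edgeR adjusted p = 0.0062). Of 39 other mitotic genes 10 fell and 1 rose. In the G1 list 8 of 14 fell, led by E2f2 (-0.80 ± 0.12, edgeR adjusted p = 6.6e-05) and Ccnd1 (-0.74 ± 0.081, edgeR adjusted p = 2.5e-06), and Mycn rose (0.53 ± 0.10, edgeR adjusted p = 0.0012). Cdkn1b rose by 0.69, and of the p53 targets Sesn2 (1.77 ± 0.12, edgeR adjusted p = 3.7e-09) and Bbc3 (0.71 ± 0.19, edgeR adjusted p = 0.0087) rose. Neuron markers were lower in KI embryos in 8 of 10 (264, 309.9 and 208 CPM in control, 60.9, 65.8 and 63.1 CPM in KI) and neural progenitor markers in 7 of 8 (1086, 1098 and 855 against 616, 649.6 and 549.6 CPM). Heart markers were higher in 7 of 7 (515, 481 and 386 against 1796, 1094 and 943 CPM). Blood markers summed to 3394, 3140.5 and 8669 CPM in control and 734, 580.2 and 2958 CPM in KI embryos. No marker of these 4 lists was at 0. Trophoblast markers were higher in KI in 4 of 8 (169.8, 203 and 342 against 489, 456 and 442 CPM), with Eomes at 0 in control 2, and mesenchyme markers in 2 of 6 (993, 1474 and 1568 against 1980.2, 2285 and 1706 CPM). Extraembryonic endoderm markers were higher in 4 of 10 (648, 702 and 562 against 823, 832 and 743 CPM). Of 5 trophoblast giant cell markers, which summed to 21.8, 27.5 and 56.4 CPM in control and 133, 142 and 144 CPM in KI embryos, Hand1 made up nearly all (21.5, 27.04 and 55.4 against 133, 142 and 144 CPM). Ctsq was at 0 in all 6 libraries and Prl3d1 in 5. The part of these cells in the result was not tested.

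From E8.5 to E9.5, 8 members fell and 3 rose in control embryos (12.1% and 12.2% of all genes), and 22 fell and 3 rose in KI embryos (16.6% and 15.9%). These comparisons share their libraries with those between genotypes. Blood markers went from 702, 1171 and 1447 CPM to 3394, 3140.5 and 8669 CPM in control embryos. In KI embryos they went from 175, 115 and 213 CPM to 734, 580.2 and 2958 CPM. Neuron markers went from 73.7, 76.9 and 66.4 CPM to 264, 309.9 and 208 CPM in control embryos. In KI embryos they stood at 76.3, 74.9 and 60.5 CPM and then 60.9, 65.8 and 63.1 CPM. Their part in the result was not tested. In controls Ccne2 went from 38.8, 37.8 and 38.6 CPM to 27.5, 26.8 and 32.3 CPM (-0.40 ± 0.10, edgeR adjusted p = 0.0050), and Rrm1 rose from 243, 243 and 245 CPM to 319.6, 315 and 291 CPM (0.35 ± 0.060, edgeR adjusted p = 0.00026), as did E2f1 (0.28 ± 0.079, edgeR adjusted p = 0.014) and Mki67 (0.25 ± 0.067, edgeR adjusted p = 0.0091). Kif20a (-0.21 ± 0.058, edgeR adjusted p = 0.012) and Kif23 (-0.24 ± 0.081, edgeR adjusted p = 0.038), both motors of the central spindle, fell. In KI embryos Ccne1 went from 115, 109 and 114 CPM to 61.6, 52.9 and 41.9 CPM without overlap (-1.11 ± 0.10, edgeR adjusted p = 7.6e-07). Ccne2 (-0.76 ± 0.10, edgeR adjusted p = 1.6e-05), Cdc6 (-0.62 ± 0.080, edgeR adjusted p = 1.7e-05), Plk1 (-0.36 ± 0.061, edgeR adjusted p = 0.00016) and Kif20a (-0.27 ± 0.058, edgeR adjusted p = 0.0015) fell, and Nusap1, a spindle protein, rose (0.27 ± 0.089, edgeR adjusted p = 0.025). The control count of 8 was 5 without E8.5 control 1, 4 without E8.5 control 3, 4 without E9.5 control 2 and 5 with only the control embryos in the fit. All genes lower then numbered 1574 of 15673, 1565 of 15701, 1284 of 15688 and 1627 of 14917, shares near those of the members. The count was 2 with scaling by library size, under which the calls over all genes went from 1877 higher and 1861 lower to 2370 and 1289. Kif23 lost its call without E8.5 control 1 or 3 or E9.5 control 1 or 2 and in 3 other settings (edgeR adjusted p from 0.053 to 0.13), E2f1 without E8.5 control 1 or 3 or E9.5 control 2, Mki67 without E8.5 control 2, and Kif20a with that scaling. In KI the count of 22 was 12 with scaling by library size (calls over all genes 3142 and 1885 rather than 2456 and 2556). Its count of 3 higher was 0 without any 1 of E8.5 KI 1, 2 or 3 or E9.5 KI 2 and 1 without E9.5 KI 3, with Nusap1 lost in each of these omissions (edgeR adjusted p from 0.063 to 0.13). The difference of the KI effect between the ages passed in 4 members, with lower effects at E9.5 (3.24% of all genes lower and 3.39% higher): Ccne1 (-0.95 ± 0.14, edgeR adjusted p = 0.00047), Rrm2 (-0.46 ± 0.10, edgeR adjusted p = 0.0088), Rrm1 (-0.42 ± 0.085, edgeR adjusted p = 0.0054) and Pcna (-0.33 ± 0.088, edgeR adjusted p = 0.027). Ccne1 stood at 111, 124 and 115 CPM in E8.5 control and 115, 109 and 114 CPM in E8.5 KI embryos, which overlapped, unlike the groups at E9.5. Rrm1 was at 243, 243 and 245 CPM in control and 272, 242 and 243 CPM in KI embryos at E8.5, which overlapped, and at 319.6, 315 and 291 and, in KI, 251, 235 and 236 CPM at E9.5, which did not. Mcm2 (-0.21 ± 0.083, edgeR adjusted p = 0.13), Mki67 (-0.11 ± 0.094, edgeR adjusted p = 0.55) and Ccnb1 (-0.11 ± 0.10, edgeR adjusted p = 0.56) did not pass. Pcna lost its call without E8.5 control 1, 2 or 3, E8.5 KI 1, E9.5 control 1 or E9.5 KI 2 or 3, with edgeR adjusted p from 0.055 to 0.094.

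**Figure D5:**
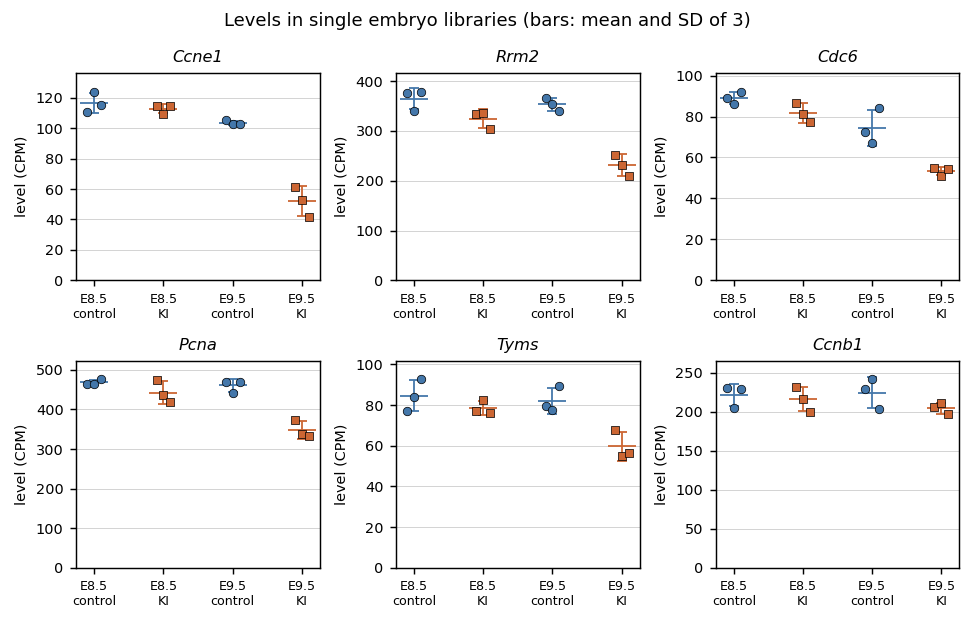
Level in CPM (vertical axis, from 0) of Ccne1, Rrm2, Cdc6, Pcna, Tyms and Ccnb1 in each embryo library by age and genotype, with bars for the mean and SD of 3 embryos. Ccne1 in E9.5 KI embryos lies at 41.9 to 61.6 CPM, below every other embryo, and Ccnb1 overlaps between the groups.

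In ES cells and EBs, KI against flox was tested as an effect averaged over the 3 stages, because flox has 1 library a stage. The fit had no term for clone, although within-group deviations of one clone correlated at 0.175 to 0.38 between these stages. A KI effect that differs between stages adds to the residual spread of this fit. By edgeR no member passed (0.398% of all genes were higher and 0.332% lower), 10 had an unadjusted p under 0.05, and DESeq2 called 3 higher, beside 373 higher and 405 lower of 16567 genes tested. The median was 0.16 against -0.0075 for all genes, and 36 of 41 values were above 0. Mcm2 stood at 623, 440.3 and 214 CPM in flox at days 0, 4 and 10, against 552 and 595, 557 and 573, and 252 and 211 CPM in KI (0.10 ± 0.10, edgeR adjusted p = 0.69). The flox value was above KI at day 0, below it at day 4 and between the clones at day 10. Mki67 was at 327, 593 and 187 CPM in flox and 407 and 382, 599 and 567, and 247 and 289 CPM in KI (0.23 ± 0.11, edgeR adjusted p = 0.33). Pcna (-0.019 ± 0.11, edgeR adjusted p = 0.96) and Ccnb1 (0.11 ± 0.12, edgeR adjusted p = 0.71) did not pass either. The values of Mcm2, Pcna and Ccnb1 changed sign when some single libraries were left out. On single days, without a test, no member was 2-fold from flox in both clones, beside 4.60%, 1.51% and 3.54% of all genes higher and 2.61%, 3.75% and 3.28% lower at days 0, 4 and 10. Both clones lay above flox in 19 of 41 members in ES cells, in 30 at day 4 and in 37 at day 10, and below it in 18, 4 and 0. The median log2 ratios were 0.018, 0.14 and 0.36, against -0.0053, 0.028 and 0.022 for all genes. At day 10 the largest ratios were those of Cdc6, at 17.03 CPM in flox and 30.6 and 30.8 CPM in KI (mean log2 ratio 0.83), Ccne2 (0.79) and Cdc20 (0.63). These ratios rest on 1 flox library a day. At day 4 trophoblast markers summed to 2173 CPM in flox and 914 and 849 CPM in KI. Extraembryonic endoderm markers stood there at 607 against 283 and 221 CPM, and mesenchyme markers at 251 against 116 and 100.3 CPM. Heart markers stood at 88.2 against 23.5 and 23.05 CPM, and pluripotency markers at 1235 against 1644 and 1703 CPM. Mesenchyme markers at day 10 summed to 12132 CPM in flox and 6364 and 15346 CPM in KI, and heart markers to 2508 CPM in flox and 362 and 248 CPM in KI. Extraembryonic endoderm markers summed to 1886 CPM in flox and 4353 and 4348 CPM in KI, trophoblast markers to 671 CPM in flox and 1624 and 1039.7 CPM in KI, and pluripotency markers to 74.1 CPM in flox and 195 and 149 CPM in KI, both clones lying above flox in each of these 3 lists. The part of composition in the ratios was not tested.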

How the data were processed

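RNA libraries of 37 samples, all made with a poly(A) isolation step per the labels' protocols, were analysed in 18 groups taken from their titles, and 63 of the 100 samples of the series were not used here. These include 1 RNA sample, neural day 8 cells with the genotype Mll3-/-;Mll4-/-, which was not analysed here. The deposited tables give a read count and an RPKM value for each of 29082 transcripts, per the file headers. The submitters' processing notes name bcl2fastq, Bowtie2, STAR, SICER 1.1 and mm9 without roles, and the counter, annotation and use of strand are not given in the sources used here, so antisense and overlapping genes cannot be told apart. Of the transcripts 28432 matched a gene symbol, and 650, with 1.27 to 2.15% of reads, were left out. The transcript with the most reads over all libraries stood for each gene, which kept a median of 71.8% of a table's reads. The authors' RPKM values were used for levels between genes only. The quasi-likelihood test of edgeR 4.0.16 in R 4.3.3 was run on the deposited counts after filterByExpr (minimum count 10), TMM scaling, robust glmQLFit, glmQLFTest and Benjamini-Hochberg adjustment over all genes, with a threshold of 0.05, in 18 comparisons. SE is the absolute log2 fold change over the square root of F. Groups of one system shared 1 fit (neural, TE with ExEn, embryo, EB course). On single EB days 0.5 CPM was added before log2 ratios, among genes with a mean of at least 1 CPM, with a 2-fold threshold. Alternatives were DESeq2 1.42.0, other scaling, no filter, sums over transcripts, omission of each library, replicate blocks and, chosen after seeing the data, omission of a KI clone on all days and fits of only the libraries compared. The code was tested on simulated data. Within-group deviations of same-numbered libraries correlated across genes at 0.284 to 0.49 in E8.5 embryos and at 0.175 to 0.48 for KI clones, which pair the samples by clone, and at -0.047 to 0.161 in E9.5 embryos. The flox numbers of the titles gave 0.204 in the neural libraries and -0.011 between TE and ExEn. The members named in each comparison are up to 3 called ones with the largest absolute log2 fold change in each set (otherwise Mki67, Ccnb1, Mcm2 and Pcna), and up to 2 genes per direction from each other list, and library values are given for some of them. Genes outside this rule were named after their values were seen. Intervals of counting error are not given, since reads are not independent molecules. The members and lists were chosen with earlier results of these data known.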

Additional observations from a re-analysis of the deposited data

Results flagged for a closer look

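The effect of KI on some of the proliferation genes differed between 2 conditions, by a test of the difference itself. Between neural day 8 and day 16, 35 of 41 members had a lower effect at day 16, beside 14.0% of all genes lower and 19.2% higher. The named genes with the largest differences (day 16 effect minus day 8 effect, log2) were Cdt1 (-1.45), Mcm3 (-1.38), Mcm2 (-1.33), Cdc20 (-1.15), Aurkb (-1.08) and Bub1b (-1.03). Between TE and ExEn cultures 15 of 41 members differed, 14 with a higher and 1 with a lower effect in TE (18.3% and 17.0% of all genes), with TE minus ExEn differences of 1.21 for Ccne2, 0.44 for Cdt1, 0.43 for Rrm2, 0.64 for Ttk, 0.52 for Cenpe and 0.51 for Aurka. Between E8.5 and E9.5 embryos 4 of 41 members differed, beside 3.24% of all genes lower and 3.39% higher: Ccne1 (-0.95), Rrm2 (-0.46), Rrm1 (-0.42) and Pcna (-0.33), E9.5 effect minus E8.5 effect.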

How the results depend on the processing

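Counts of called members stayed within 1.5 times of those reported in 232 of 250 recomputed values other than omissions. These include counts that were 0 and stayed 0, which add to the agreement. Summed levels of the 2 sets moved by more than the spread between replicates in 49 recomputed values (scaling by library size or sums over transcripts) and by less in 23. For the flox ES cells and EBs, with 1 library a stage, an interval of counting error stood in for that spread. The member counts that moved follow. In TE, 5 members rather than 8 were higher with DESeq2, RLE scaling, library size scaling, no filter, sums over transcripts and only the libraries compared. At neural day 8 the last of these gave 39 rather than 22. For the TE against ExEn difference the count lower was 0 with DESeq2 and 2 with library size scaling. Control embryos between the ages had 2 lower members with library size scaling and 5 with only the libraries compared, rather than 8. KI embryos had 1 higher with RLE scaling, no filter or sums, 6 with library size scaling rather than 3, and 12 lower rather than 22. KI EBs at day 4 had 8 lower with library size scaling rather than 15, and the EB genotype effect had 3 higher with DESeq2 rather than 0. Library size scaling also moved calls over all genes for the neural difference of effects from 3150 higher and 2300 lower to 1915 and 3179, for flox TE against ExEn from 5007 and 5042 to 5649 and 4512, and for KI EBs at day 4 from 4157 and 3725 to 4805 and 3027. The cause was not tested. When 1 library was left out at a time the counts of called members ran as follows: neural day 8 6 to 14 higher, neural day 16 0 to 1 higher and 19 to 28 lower, flox between neural days 41 lower, KI between neural days 41 lower, the neural difference 0 to 1 higher and 25 to 34 lower, TE 5 to 7 higher and 15 to 19 lower, ExEn 1 to 2 higher and 21 to 27 lower, flox TE against ExEn 28 to 31 higher and 2 to 4 lower, KI TE against ExEn 33 to 38 higher and 0 to 1 lower, the TE against ExEn difference 6 to 20 higher and 0 to 2 lower, E9.5 12 to 16 lower, control between ages 2 to 3 higher and 4 to 10 lower, KI between ages 0 to 3 higher and 15 to 23 lower, the embryo difference 3 to 5 lower, KI EBs at day 4 2 higher and 4 to 6 lower, KI EBs at day 10 40 lower. The remaining counts stayed 0. Reversed values, of genes that passed no test, occurred for Ccnb1 at E8.5 (0.016 without KI embryo 3, range over omissions -0.093 to 0.016) and, in the EB course, for Ccnb1 (-0.030 without day 10 flox, range to 0.25), Mcm2 (-0.021 without day 4 flox, range to 0.21) and Pcna (0.0043 with library size scaling, 0.14 without the ES cell libraries or the flox one alone, 0.026 and 0.0036 without ES cell clone 27 or 48, 0.018 without clone 27 on all days, range from -0.16). Depth did not limit the members, at 117 reads or more in every library. The replicate number limits precision: with 2 libraries a group, omissions leave 1 that is assumed to vary like the others. With the replicate block, members called lower in the neural difference numbered 36, at E9.5 15 and in the embryo difference 5, higher in the TE against ExEn difference 19, lower in KI EBs at day 4 13, and at E8.5 0. The block changed no other count by over 1.5 times. The flox TE and ExEn libraries of one number (r = -0.011) share only a number, while E9.5 embryos of one number correlated at -0.047 to 0.161.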

Other observations

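Genes of CDK inhibitors, which are outside the 41 members, varied with stage. Cdkn1c stood at 11.6 and 9.71 CPM in KI ES cells, 66.2 and 77.0 CPM at day 4 and 886 and 911 CPM at day 10, and at 9.29, 84.7 and 1042 CPM in the flox libraries. The summed members were at their lowest on the same day. Cdkn1a was at 562 and 540.5 CPM in KI ES cells, and fell to 156 and 158 CPM at day 4 (-1.81 ± 0.081, edgeR adjusted p = 4.5e-06). In neural progenitors Cdkn1c stood at 1016 and 1049 CPM in flox and 1036 and 996 CPM in KI, beside abundant transcripts of the members. From there to neurons it fell to 265 and 360.0 CPM in flox (-1.86 ± 0.15, edgeR adjusted p = 1.6e-07) and to 147 and 187 CPM in KI (-2.73 ± 0.15, edgeR adjusted p = 3.9e-09). From day 8 to day 16 Cdkn2b rose in flox (3.64 ± 0.19, edgeR adjusted p = 2.8e-09) and in KI (1.65 ± 0.18, edgeR adjusted p = 3.3e-06). Cdkn2a rose in flox (1.83 ± 0.18, edgeR adjusted p = 1.5e-06) and fell in KI (-0.83 ± 0.19, edgeR adjusted p = 0.0015), and the difference between these changes was -2.67 ± 0.27, edgeR adjusted p = 2.2e-05.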
